A study of Mus musculus with 3 samples.

Results

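The GATA factors are 6 transcription factors, Gata1 to Gata6, that bind DNA through zinc fingers. All 6 rows carrying these symbols were taken from the 33696 genes of the table (Gata1, ENSMUSG00000031162; Gata2, ENSMUSG00000015053; Gata3, ENSMUSG00000015619; Gata4, ENSMUSG00000021944; Gata5, ENSMUSG00000015627; Gata6, ENSMUSG00000005836). They were followed across cell types in mouse embryonic trunk at stages E11.5, E12.5 and E13.5, where E stands for embryonic day. A UMI, or unique molecular identifier, counts 1 captured RNA molecule. At E11.5, 964 of 6313 cells held a UMI of any Gata gene. The counts were 710 of 6175 cells for E12.5 and 1667 of 7517 for E13.5.

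The study profiled single cells of the mouse trunk, spanning cervical segment C3 to thoracic segment T2, with the forelimbs and thoracic organs taken off. The tissue left held neural tube and the derivatives of somites and of lateral plate. Each stage was 1 library made from a pool of 3 littermates, prepared with 10x Genomics 3′ chemistry. No strain, genotype or treatment is named in the labels used here, which set the 3 groups apart by stage alone. Each stage is also a separate library and pool of embryos, so stage cannot be told apart from these. With 1 library per stage there is no replicate, so no difference between stages has a test. All intervals are 95% intervals for counting error only, and they say nothing of the spread between embryos.

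In textbook accounts Gata1, Gata2 and Gata3 are grouped as the blood factors and Gata4, Gata5 and Gata6 as the heart and gut factors. Gata1 drives red cell and megakaryocyte formation, Gata2 acts in blood stem cells, mast cells, endothelium and ventral spinal interneurons, and Gata3 acts in T cells, sympathetic neurons, skin and the same interneurons. Gata4, Gata5 and Gata6 act in mesoderm next to the coelom, including heart and mesothelium. The factors recognise the core letters GATA in DNA and work with the FOG proteins (Zfpm1 and Zfpm2) and, in blood, with a complex that contains Tal1 and Lmo2.

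Cells were barcodes with at least 4000 UMIs and at most 10% mitochondrial UMIs. Median depth was 12515, 11065 and 10298 UMIs per cell at the 3 stages in order, and between 10 and 16 cell barcodes were shared by a pair of libraries. Each cell took the class for which it held the largest share of markers, so class names end in "-like" and rest on no Gata gene. Levels are given as CPM, the UMIs of a gene per 1000000 UMIs, over the summed cells of a class. Because cells differ in depth, shares of cells with a UMI are given after thinning every cell to 4000 UMIs, with the unthinned share where it matters. Droplets of 50 to 500 UMIs, which carry free RNA, held 0.125 to 0.605 CPM of Gata1, 2.19 to 2.96 of Gata2, 2.63 to 4.00 of Gata3, 0.125 to 1.22 of Gata4, 0.242 to 1.22 of Gata5 and 10.4 to 11.7 of Gata6. If free RNA made up as much as 25% of a cell, it would give up to 2.91 CPM of Gata6 and up to 0.999 of Gata3.

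To show what the family reads, the 250 bases before the start of genes discussed here were searched on both strands for a GATA motif. A match was AGATAA, or the variant ending in G, written AGATAG. With T in place of the leading A, the letters TGATAA counted as well, as did the variant ending in G, written TGATAG. No other motif was searched. Over all promoters in the RefSeq table (build GRCm38.p6), 8718 of 32851, or 26.5%, held at least 1 match. Of the 24 genes listed as erythroid targets of Gata1, 18 had an entry, and 14 of these (77.8%) held a match. Of 11 mast cell genes, 9 had an entry and 7 (77.8%) held a match. The shares were 5 of 13 for mesothelial and lateral plate genes, 4 of 15 for V2 interneuron genes and 2 of 8 for epidermal genes, beside 8039 of 27025 (29.7%) over all genes. Of the family itself, 4 genes had entries and 0 of their 5 promoters held these letters.

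Promoters of 5 genes with a match are printed here, with that of Gata1 for contrast, because their genes appear in the classes where a Gata gene was highest. Each is written 5′ to 3′ on the gene's own strand, with motif letters in capitals. The coordinates are of GRCm38, whereas the reads were counted on GRCm39. The erythroid genes are Alas2, the first enzyme of haem synthesis in red cells (chrX:150547167-150547416, plus strand), Klf1, a red cell transcription factor (chr8:84901732-84901981, plus strand), and Rhag, a red cell membrane protein (chr17:40810899-40811148, plus strand). Cpa3 encodes a mast cell protease (chr3:20242182-20242431, minus strand) and Upk3b a mesothelial uroplakin (chr5:136038246-136038495, plus strand). The Gata1 promoter lies at chrX:7967911-7968160 on the minus strand.
Alas2: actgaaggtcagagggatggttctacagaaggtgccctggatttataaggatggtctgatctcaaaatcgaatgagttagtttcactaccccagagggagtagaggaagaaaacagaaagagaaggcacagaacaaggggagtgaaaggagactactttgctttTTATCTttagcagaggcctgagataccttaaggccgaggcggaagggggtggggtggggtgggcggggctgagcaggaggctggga
Klf1: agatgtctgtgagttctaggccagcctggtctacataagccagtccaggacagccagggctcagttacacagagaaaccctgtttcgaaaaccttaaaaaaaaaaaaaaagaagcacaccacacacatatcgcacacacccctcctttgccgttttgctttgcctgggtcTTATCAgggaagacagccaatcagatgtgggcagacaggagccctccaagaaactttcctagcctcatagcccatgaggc
Rhag: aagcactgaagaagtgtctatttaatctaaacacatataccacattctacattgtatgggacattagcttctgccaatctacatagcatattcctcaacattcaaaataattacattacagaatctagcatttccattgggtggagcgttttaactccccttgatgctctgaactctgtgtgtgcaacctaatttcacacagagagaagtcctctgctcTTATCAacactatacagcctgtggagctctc
Cpa3: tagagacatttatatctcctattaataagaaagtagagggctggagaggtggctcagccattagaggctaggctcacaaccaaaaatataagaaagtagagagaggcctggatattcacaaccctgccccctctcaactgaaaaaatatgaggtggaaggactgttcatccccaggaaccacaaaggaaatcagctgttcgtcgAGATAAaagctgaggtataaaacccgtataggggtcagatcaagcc
Upk3b: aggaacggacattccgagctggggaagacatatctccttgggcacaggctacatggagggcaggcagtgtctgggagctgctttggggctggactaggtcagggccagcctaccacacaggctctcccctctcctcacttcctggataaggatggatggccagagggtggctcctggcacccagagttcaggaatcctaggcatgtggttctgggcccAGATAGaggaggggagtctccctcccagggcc
Gata1: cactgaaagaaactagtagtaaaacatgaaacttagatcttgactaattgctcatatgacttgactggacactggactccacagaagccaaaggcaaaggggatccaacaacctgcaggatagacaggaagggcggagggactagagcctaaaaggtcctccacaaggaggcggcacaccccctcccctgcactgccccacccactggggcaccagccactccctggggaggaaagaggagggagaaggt
The match began 86 bases before the start in Alas2, 80 in Klf1, 31 in Rhag, 46 in Cpa3 and 32 in Upk3b. A match is a description of the letters and not a measured binding site.

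The 6 genes divided the trunk between them. Gata1 UMIs lay mostly in erythroid-like cells (75.9% of 257 UMIs over all stages). Gata2 was split between mast-like cells (38.9% of 1158), spinal neuron-like cells (23.8%), mesenchyme-like cells (8.20%), sympathetic neuron-like cells (8.03%) and endothelium-like cells (7.86%). The mesenchyme-like share came from 9604 cells, at 1.51, 0.564 and 0.468 CPM of Gata2 in stage order. These levels lie below that of Gata2 in the droplets that carry free RNA. Gata3 lay in spinal neuron-like cells (546 of 1820 UMIs), epidermis-like (27.5%) and sympathetic neuron-like cells (16.6%). Gata4 was shared by mesothelium-like (46.8% of 310) and mesenchyme-like cells (45.8%). The mesenchyme-like class held 78.9% of 336 Gata5 UMIs and 84.0% of 6988 Gata6 UMIs.

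**Figure D1:**
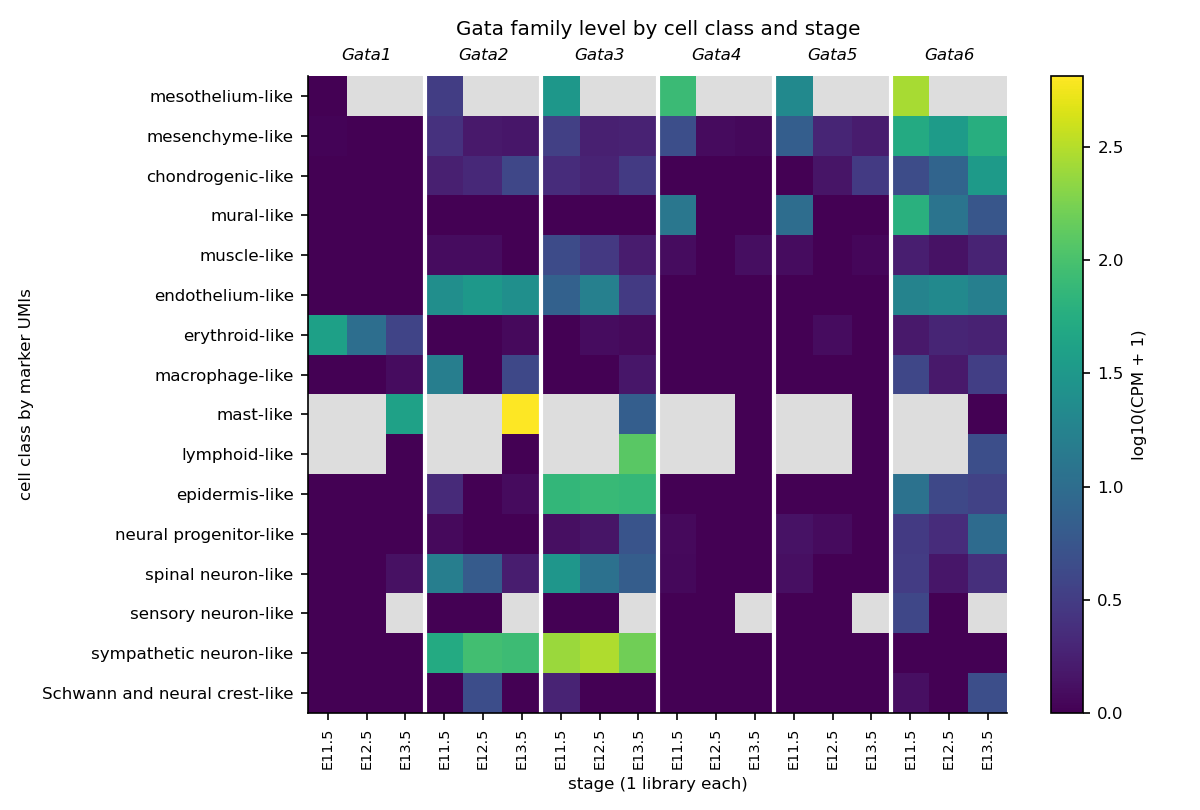
Level of each Gata gene (colour, log10 of CPM + 1) in each cell class (rows) at each stage (columns, 1 library each), with grey where a class had too few cells. Gata1 to Gata3 are bright in blood, neuron and epidermis rows, and Gata4 to Gata6 in the mesothelium, mesenchyme and mural rows. In the mural row Gata4 and Gata5 rest on 4 and 3 UMIs, each in 2 of 18 cells, at E11.5 and are 0 later. In the mesenchyme row they were only 0.197 and 0.958 CPM at E12.5.

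Gata1, the red cell factor, stood at 39.1 CPM (32.9 to 46.2) in the 132 erythroid-like cells of E11.5, from 140 UMIs. At E12.5 it was 9.33 CPM (6.63 to 12.8; 39 UMIs in 258 cells). At E13.5 it was 2.74 CPM (1.57 to 4.45; 16 UMIs in 536 cells). The level was lower at each later stage and no interval overlapped the next. The share of erythroid-like cells with a Gata1 UMI after thinning was 14.4%, 2.33% and 0.933% in stage order, and 62.9%, 10.5% and 2.05% without thinning. Spinal neuron-like cells, which should lack the gene, held 0 Gata1 UMIs at E11.5 and E12.5 and 1 at E13.5. Their median depth was 9531, 8019.5 and 6101 UMIs, below the 25714, 17177 and 10997 of erythroid-like cells.

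The log2 ratio of Gata1 was -2.07 (-2.62 to -1.55) for E12.5 over E11.5 and -1.77 (-2.71 to -0.89) for E13.5 over E12.5. In cells with at least 500 genes the latter was -0.32 (-1.36 to 0.63), an interval that spans 0. Most genes of these cells moved the same way: the median over all genes compared was -1.08 for the earlier step and -0.86 for the later one. Of 9301 genes compared in the earlier step, 53.7% were lower by 2 fold or more and 4.18% higher. In the later step the shares were 42.1% and 1.45% of 8291. Haemoglobin took 57.1%, 77.7% and 85.6% of all UMIs of the class at the 3 stages. With haemoglobin left out of the total, Gata1 stood at 91.1, 41.9 and 19.1 CPM, and the ratio for E12.5 over E11.5 was -1.12.

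Signs of red cell maturity moved with stage as well, and their part in the Gata1 difference was not tested. Embryonic globins made up 76.9%, 56.1% and 25.6% of haemoglobin UMIs, and the median number of genes detected per cell was 2315, 764 and 394. In cells with 2000 or more genes Gata1 stood at 40.05 CPM (33.1 to 48.0; 95 cells) at E11.5, 26.2 (14.3 to 43.9; 23 cells) at E12.5 and 27.5 (13.2 to 50.6; 20 cells) at E13.5, with overlapping intervals. In cells with at least 500 but under 2000 genes it was 35.2 CPM (22.6 to 52.4; 37 cells), 6.46 (4.00 to 9.87; 200 cells) and 2.15 (0.444 to 6.29; 113 cells). The last value came from only 3 UMIs, and its interval overlaps that of E12.5. Different clusters held most erythroid-like cells: cluster 34 held 94.7% at E11.5, cluster 36 held 70.9% at E12.5 and cluster 52 held 63.8% at E13.5. Within cluster 34, led by Hemgn, Aqp8 and Pklr, Gata1 was 39.9 CPM (33.4 to 47.2) at E11.5, 32.7 (20.2 to 49.9) at E12.5 and 34.6 (15.8 to 65.8) at E13.5. Within cluster 36 it was 5.44 CPM at E12.5, against 1.02 CPM in the E13.5 cells. In cluster 52 it was 1.17 CPM at E13.5.

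**Figure D2:**
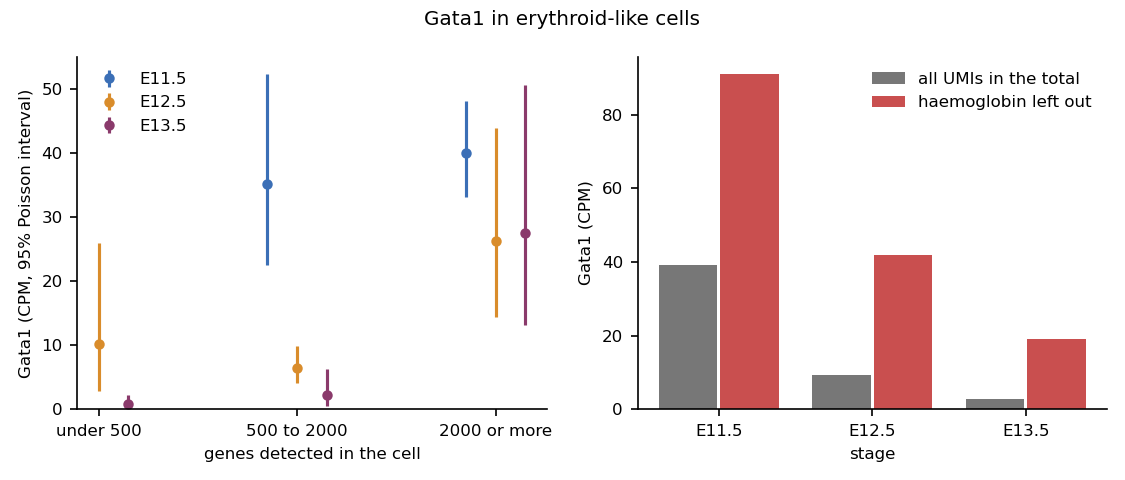
Left, Gata1 (CPM with its 95% Poisson interval) in erythroid-like cells split by the number of genes detected, coloured by stage. Right, Gata1 (CPM) over all erythroid-like cells, with all UMIs in the total or haemoglobin left out. Cells with 2000 or more genes sit at 40.05, 26.2 and 27.5 CPM, while the bars drop at every stage under both totals.

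Other early red cell genes marked the cells that still held Gata1 at E13.5. The 10 cells with a UMI of Epor, the erythropoietin receptor, carried 9 of the 16 Gata1 UMIs, or 64.5 CPM. The 35 cells with Klf1 stood at 21.2 CPM, the 30 with the transferrin receptor gene Tfrc at 24.6 and the 20 with Zfpm1 at 27.9. At E11.5 these genes marked no such group: Gata1 was 38.8 CPM in the 122 cells with Klf1 and 42.3 in the 94 with Epor.

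Of 24 listed erythroid targets of Gata1, 10 were lower and 5 higher by 2 fold or more at E12.5 than at E11.5, with a median log2 ratio of -0.63. From E12.5 to E13.5, 14 were lower and 3 higher, with a median of -1.36. Over all genes, 53.7% were lower and 4.18% higher in the earlier step and 42.1% and 1.45% in the later. Of the members, 13 are also class markers, and the counts carry no test. Klf1 stood at 113, 26.8 and 11.8 CPM in stage order. Rhag followed with 86.6, 32.5 and 6.34 CPM, and Epor with 63.7, 9.57 and 2.91 CPM. Alas2 was steadier at 510, 465 and 420 CPM. The adult globin gene Hbb-bs took the other course, with a log2 ratio of 1.61 at the later step. Tspo2, a red cell membrane gene, had the highest ratio of the list at the earlier step, 3.11. Among 14 measured partners of the family in erythroid-like cells, 10 were lower and 0 higher at E12.5 than at E11.5, beside 53.7% and 4.18% of all genes. In the later step 9 of 14 were lower and 0 higher, beside 42.1% and 1.45%. Tal1 stood at 76.6, 46.9 and 15.4 CPM, Zfpm1 at 68.7, 27.3 and 5.14, and Lmo2 at 53.7, 17.9 and 25.4.

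Gata1 was found in few other cells. The 32 mast-like cells of E13.5 held 27 Gata1 UMIs, 39.9 CPM (26.3 to 58.1), an interval that overlaps that of E11.5 erythroid-like cells. Both megakaryocyte-like cells of E12.5 held the gene, with 3 and 4 UMIs.

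Among classes with 20 or more cells at a stage, Gata2 was highest in mast-like cells, which store histamine and proteases. All 32 mast-like cells of E13.5 carried it, from 2 to 47 UMIs per cell with a median of 9. The class stood at 650.6 CPM (591 to 714), and 78.1% of its cells kept a UMI after thinning. The protease genes Cpa3 and Cma1 stood at 6324 and 2885 CPM in the same cells, and the receptor gene Kit at 362. These genes are markers of the class, so their levels follow in part from how its cells were chosen. Another marker, Fcer1a, had only 1 UMI there. The 16 mast-like cells with Gata1 all held Gata2 as well, and the other 16 held Gata2 alone. When classes were taken from clusters, the mast cluster had 92 cells at E13.5 and Gata2 was 338 CPM.

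In erythroid-like cells Gata2 was nearly absent, with 0 UMIs at E11.5 and E12.5 and 1 at E13.5. Of 132 cells at E11.5, 0 had a Gata2 UMI after thinning, which allows a share of up to 2.27% (3 cells of 132). Both megakaryocyte-like cells of E12.5 held 7 Gata2 UMIs each. In macrophage-like cells the level of 15.0 CPM at E11.5 came from 1 of 43 cells, which held all 15 UMIs, so the other 42 cells were at 0.

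Endothelium-like cells held Gata2 at every stage, at 23.7 CPM (15.8 to 34.0; 54 cells), 30.5 (19.7 to 45.0; 29 cells) and 24.5 (17.2 to 33.7; 74 cells). These intervals overlap. The same cells held Gata6 at 17.1, 20.7 and 15.2 CPM, also with overlapping intervals. Of the endothelium-like cells with Gata6, 4 of 6, 4 of 6 and 7 of 10 also held Gata2 before thinning. Over the whole class, Gata2 was in 15 of 54, 12 of 29 and 22 of 74 cells before thinning. After thinning, 20% of the E13.5 cells with Gata6 held Gata2, which was 1 cell, beside 9.46% of the class. Tal1 stood at 25.3, 28.0 and 24.5 CPM there, and Lmo2 at 403, 355 and 422.

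Sympathetic neuron-like cells, which use noradrenaline, had the highest Gata3 of any class with 20 or more cells. The level was 244.5 CPM (202 to 294; 21 cells) at E11.5, 298.9 (251 to 353; 25 cells) at E12.5 and 159.0 (118 to 209; 31 cells) at E13.5. The intervals of E11.5 and E12.5 overlap, and that of E13.5 only meets that of E11.5. Gata3 UMIs were found in 18 of 21, 23 of 25 and 22 of 31 cells, with medians of 6, 5 and 1 UMIs per cell. Median depth in these cells was 21174, 18903 and 9134 UMIs, so the medians per cell moved with depth. Gata2 stood at 51.9 CPM (33.3 to 77.3), 91.0 (65.6 to 123) and 84.2 (55.5 to 122). Before thinning, cells with both factors numbered 9, 12 and 10. Gata3 was in 90%, 92.3% and 66.7% of cells with Gata2, and in 81.8%, 91.7% and 75% of cells without it. After thinning, 2 cells of E12.5 and 1 of E13.5 held both. The classes had fewer than 50 cells, so no stage ratio was taken. Dbh, the enzyme that makes noradrenaline and a marker of the class, stood at 798, 373 and 318 CPM.

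In spinal neuron-like cells most Gata2 and Gata3 UMIs lay in a small set of neurons. Gata2 stood at 15.0 CPM (13.0 to 17.2; 205 UMIs in 1247 cells) at E11.5, 5.45 (4.24 to 6.90; 69 UMIs in 1382 cells) at E12.5 and 0.685 (2 UMIs in 443 cells) at E13.5. Gata3 stood at 29.4 CPM (26.6 to 32.4; 401 UMIs), 10.1 (8.44 to 12.0; 128 UMIs) and 5.82 (17 UMIs). After thinning, 4.01% and 4.41% of E11.5 spinal neuron-like cells held Gata2 and Gata3. The share in neural progenitor-like cells, at a median depth of 11344 UMIs, was 0.159% for either gene.

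Stage ratios of the whole class were -1.46 (-1.88 to -1.06) for Gata2 and -1.54 (-1.84 to -1.25) for Gata3 at E12.5 over E11.5. With a minimum of 8000 UMIs per cell, these ratios were -0.66 (-1.09 to -0.23) and -0.82 (-1.13 to -0.51). At E13.5 over E12.5, with the usual minimum of 4000 UMIs, they were -2.99 (-6.07 to -1.09) and -0.80 (-1.62 to -0.06). Of 14966 genes compared in the earlier step, 6.37% were lower and 8.37% higher by 2 fold or more, and in the later step 6.59% and 5.51% of 14044. The class is mixed in its makeup: 2 of its clusters, 37 and 47, had a marker of another class but none of their own among their 10 leading genes. The clusters are therefore also given by number. Cluster 16, led by Nkx1-2 and Dmrt3, held 172 Gata2 and 363 Gata3 UMIs in its 219 cells of E11.5, or 75.2 CPM (64.4 to 87.3) and 159 CPM (143 to 176). Cluster 45 of E12.5 held 62 and 102 UMIs in 292 cells, or 18.1 CPM (13.9 to 23.2) and 29.7 CPM (24.2 to 36.1). Most other neuron clusters were at or near 0; in cluster 47, for example, 333 cells of E12.5 held 0 Gata2 UMIs and 1 Gata3 UMI.

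Most neurons with both Gata2 and Gata3 also held Tal1, a helix-loop-helix factor of the V2b interneuron lineage. At E11.5 the 56 cells with a Tal1 UMI, 4.49% of spinal neuron-like cells, carried 80.0% of Gata2 UMIs and 88.5% of Gata3 UMIs. Of these 56 cells, 47 held both factors, 2 held Gata2 alone, 7 held Gata3 alone and 0 held neither, and 9 neurons held both factors without a Tal1 UMI. Gata3 was 648.6 CPM with Tal1 against 3.51 without, and Gata2 299.7 against 3.13. At E12.5 the 23 cells with Tal1 (1.66%) carried 78.3% of Gata2 and 64.1% of Gata3 UMIs, and 13 of them held both and 4 neither. Of the 18 neurons with both factors at that stage, 5 had no Tal1 UMI. At E13.5 the 5 cells with Tal1 held 0 Gata2 UMIs and 10 of the 17 Gata3 UMIs.

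Counted by cell at E11.5 before thinning, 56 neurons held both Gata2 and Gata3, 11 held Gata2 alone, 13 held Gata3 alone and 1167 held neither. After thinning, 36 held both, 14 Gata2 alone and 19 Gata3 alone. Among the 56, 94.6% held Lhx1, 75.0% held Gad2 and 58.9% held Slc32a1, the GABA and glycine transporter. Among the 1167 the shares were 51.4%, 23.0% and 15.9%. Zfpm1, the FOG partner, was in 48.2% of the 56 and 5.57% of the 1167. Slc17a6, the glutamate transporter of excitatory neurons, was in 3.57% and 26.9%. None of the 56 held Lbx1, En1 or Mnx1, which mark dorsal, V1 and motor neurons and were in 269, 158 and 73 of the 1167. Pkd2l1, which marks neurons that contact the central canal, was also in 0 of the 56. The whole class held only 20 Pkd2l1 UMIs at E11.5, so this 0 cannot show that such neurons were absent. Median depth was 9283.5 UMIs in the 56 and 9566 in the 1167.

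The same E11.5 neurons were also split by other genes, which is a second view of the same cells and not separate support. Gata3 stood at 101 CPM in cells with Gad2 and 8.35 in cells without, and at 55.2 with Lhx1 and 2.68 without. With Lbx1 it was 0.741 CPM and without it 36.5, and cells with Mnx1 held 0 UMIs. The 19 cells with Vsx1, a gene of the common V2 precursor, had 79.9 CPM of Gata2 against 14.2 in the rest, while Gata3 was 28.5 against 29.4.

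**Figure D3:**
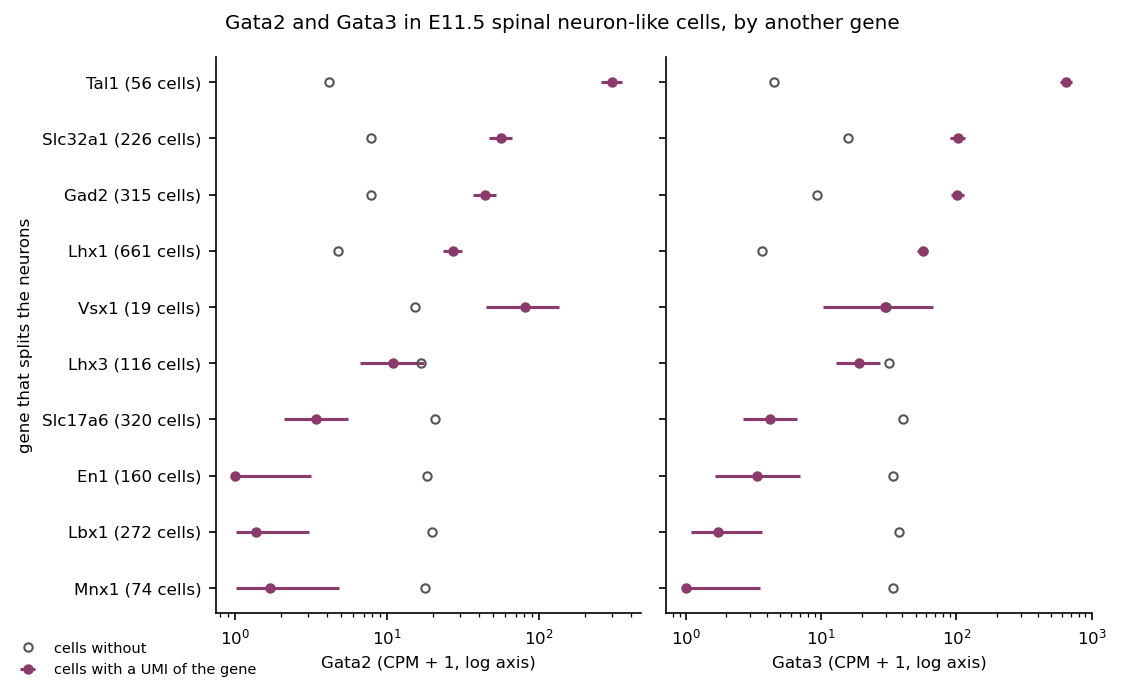
Gata2 (left) and Gata3 (right) in E11.5 spinal neuron-like cells with a UMI of each listed gene (filled, with 95% Poisson interval) and without it (open), as CPM + 1 on a log axis. Cells with Tal1 stand far to the right in both panels, and cells with Lbx1, En1 or Mnx1 at the left end.

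Of 16 measured V2 lineage genes, 7 were lower and 4 higher by 2 fold or more at E12.5 than at E11.5, with a median of -0.66, beside 6.37% and 8.37% of all genes. Of 15 in the later step, 6 were lower and 1 higher, with a median of -0.72, beside 6.59% and 5.51%. Lhx3, a factor of V2 and motor neurons, had the lowest ratio in the earlier step (-2.87). Of 13 other spinal identity genes, 8 were lower and 3 higher in the earlier step, and 7 lower and 1 higher in the later. In both lists more genes were lower than higher at each step.

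In epidermis-like cells the Gata3 intervals of all 3 stages overlapped. It was 72.1 CPM (55.3 to 92.4; 56 cells), 77.2 (62.7 to 93.9; 88 cells) and 72.9 (65.4 to 81.1; 286 cells). The log2 ratios were 0.10 (-0.37 to 0.58) and -0.08 (-0.41 to 0.26), with both intervals spanning 0. Over the same step from E11.5 to E12.5, 4 of 15 listed epidermal genes were higher by 2 fold or more and 0 lower, against 6.89% and 6.41% of all 10202 genes compared. Krt14, a keratin of basal cells, had the highest ratio, 2.27. From E12.5 to E13.5, 1 of 15 was higher, Klf4 at 1.87, and 0 were lower, against 4.32% and 9.69% of 11791. Of these 15 genes, 7 are class markers.

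Within E13.5 epidermis-like cells Gata3 was higher in cells that held certain other epidermal regulators. It stood at 116 CPM (93.3 to 142) in the 31 cells with Ovol1 and 64.2 (56.5 to 72.7) in the rest. The pair of values was 99.3 and 63.6 for Grhl3 and 90.3 and 61.3 for Tfap2c. It was 73.1 and 72.6 for Krt10, a keratin of the upper layers, and 72.7 and 75.1 for Trp63. For the keratin gene Krt15 the pair went the other way, at 70.5 and 116, a log2 ratio of -0.72 (-1.27 to -0.12). The order was not the same at every stage. At E11.5 Gata3 was 58.0 CPM with Grhl3 and 80.8 without, with overlapping intervals, and 22.2 (6.06 to 56.9; 10 cells) with Klf4 against 85.3 (64.8 to 110) without. At E12.5 it was 42.2 CPM with Elf3, from 11 cells, and 86.1 without, a log2 ratio of -1.03 (-2.08 to -0.12). At E13.5 cells with Klf4 stood at 85.4 against 64.3 CPM, and cells with Elf3 at 97.0 against 70.1. The epidermis-like cells fell in clusters 29 and 32, and at E13.5 Gata3 was 65.5 CPM (57.6 to 74.2) in cluster 29 and 105 (84.4 to 128) in cluster 32, which was led by barrier genes such as Krtdap and Dmkn.

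Gata3 was also found in 19 of 24 lymphoid-like cells of E13.5, at 124.6 CPM (85.7 to 175). Ordered by level at E13.5, sympathetic neuron-like and lymphoid-like cells had overlapping intervals, lymphoid-like cells stood above epidermis-like cells, and epidermis-like cells stood above spinal neuron-like cells. Muscle-like cells, which are outside these lineages, held 3.38, 1.92 and 0.642 CPM of Gata3.

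Among classes with 20 or more cells at a stage, Gata4, Gata5 and Gata6 were highest in mesothelium-like cells, the lining of the body cavities. In the 82 such cells of E11.5 Gata6 stood at 276 CPM (252 to 302; 484 UMIs), Gata4 at 81.0 (68.3 to 95.5; 142 UMIs) and Gata5 at 20.5 (14.4 to 28.4; 36 UMIs). Gata6 was found in 54.9% of the cells after thinning and 76.8% before. The later stages had 2 and 4 mesothelium-like cells, too few for a comparison. Before thinning, 43 of the 44 cells with Gata4 held Gata6, as did 20 of the 38 without Gata4. Of the 21 cells with Gata5, 19 held Gata6, against 72.1% of cells without Gata5. After thinning, 56.25% of cells with Gata4 and 54.5% of cells without it held Gata6. Thinning left a Gata4 UMI in 16 of the 44 cells, so the cells without it include cells that held Gata4 before. These shares therefore cannot show that the contrast is absent. For Gata5 the thinned shares were 83.3% and 52.6%, with 6 cells holding Gata5.

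The mesothelium-like class contained a distinct set of 12 cells. They fell in cluster 32, named epidermis by its markers, and held 47 of the 52 Gata3 UMIs of the class with 0 UMIs of Gata4 and Gata6. They are therefore among the 38 cells without Gata4. All 12 held the epithelial gene Epcam and 9 held Cdh1. The other 70 cells, in the mesothelium cluster, held 0 Cdh1 UMIs, and 69 of them held Upk3b. In these 70 cells Gata6 was 358 CPM, Gata4 105 CPM, Gata5 25.9 CPM and Gata3 3.69 CPM. The Gata3 level of the whole class, 29.7 CPM, therefore came almost wholly from the 12 cells.

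Among other genes of the lining and the lateral plate, Upk3b stood at 580 CPM in the 82 cells, Aldh1a2, which makes retinoic acid, at 458 and the mesothelial regulator Wt1 at 185. Upk3b and Wt1 are class markers, so their levels follow in part from how the cells were chosen. The T-box gene Tbx18 stood at 171 CPM. The partners Zfpm1 and Zfpm2 stood at 43.4 and 44.5 CPM.

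In mesenchyme-like cells Gata4 was 3.80 CPM (128 UMIs in 2282 cells) at E11.5, 0.197 (7 UMIs in 2707 cells) at E12.5 and 0.137 (7 UMIs in 4615 cells) at E13.5. Gata5 was 5.87 CPM (198 UMIs), 0.958 (34 UMIs) and 0.644 (33 UMIs). Gata6 was 51.0 CPM (48.7 to 53.5), 34.4 (32.5 to 36.4) and 57.1 (55.1 to 59.2), with no overlap between stages. After thinning, 9.95%, 7.79% and 14.7% of cells held Gata6. Muscle-like cells, at a median depth of 15771.5 to 21106 UMIs, held it in at most 0.493%, and their level of 0.360 to 0.898 CPM lies under the free RNA bound.

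The log2 ratio for E12.5 over E11.5 was -4.27 (-5.61 to -3.18) for Gata4, -2.62 (-3.19 to -2.08) for Gata5 and -0.57 (-0.68 to -0.46) for Gata6. Over all 16990 genes compared, 3.18% were lower and 13.9% higher by 2 fold or more, and the median was 0.16. The direction for Gata6 was not a property of all mesenchyme-like cells. With cells holding any mesothelial marker left out, an alternative chosen after seeing the data, the ratio was 0.33 (0.19 to 0.48) for Gata6, -1.33 (-2.09 to -0.61) for Gata5 and -2.65 (-4.65 to -1.09) for Gata4. With classes taken from clusters, the ratio for Gata6 was 1.98, for Gata5 0.31 and for Gata4 -0.87. By cluster, however, only 495 of the 2282 mesenchyme-like cells of E11.5 kept that class, against 2332 of 2707 at E12.5. At E13.5 over E12.5 the ratio for Gata6 was 0.73 (0.63 to 0.83) in all mesenchyme-like cells and 0.85 (0.74 to 0.96) without the cells with mesothelial markers, where 4.82% of 17561 genes were higher and 6.06% lower. For Gata5 this later ratio was -0.57 (-1.31 to 0.16).

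The level of all 3 genes at E11.5 went with mesothelial markers. In mesenchyme-like and chondrogenic-like cells together, Gata6 was 22.6 CPM in 2120 cells with none, 105 in 374 cells with 1 and 259 in 83 cells with 2 or more. Gata4 was 0.730, 11.1 and 24.1 CPM and Gata5 1.76, 15.2 and 32.9 CPM in the same order. At E13.5 Gata6 was 57.1 CPM in 3912 cells with none, 51.4 in 767 with 1 and 115 in 37 with 2 or more. Of the 2961 Gata6 UMIs at E13.5, 2428 lay in cells with no mesothelial marker.

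Because cluster 10 had 3 mesothelial and 0 mesenchymal markers among its 10 leading genes, mesenchyme was also compared by cluster. Clusters 4 and 40 likewise led with muscle and mural markers, and cluster 20 had 1 marker of sensory neurons, Runx1 being among its leading genes. Cluster 10 held 17.2% of the E11.5 mesenchyme-like cells and 0.591% and 0% of those at later stages. Its 393 mesenchyme-like cells of E11.5 stood at 222 CPM of Gata6 (210 to 234), 28.7 of Gata5 (24.7 to 33.3) and 19.6 of Gata4 (16.2 to 23.4). They held 120 of the 128 Gata4 UMIs and 176 of the 198 Gata5 UMIs of that class and stage. The 16 cells of this cluster at E12.5 stood at 297 CPM of Gata6 (228 to 379).

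Gata6 was high again in clusters that appeared later. Cluster 20, led by Pitx1, a hindlimb and jaw homeobox gene, and Runx1, held 222 CPM at E13.5 (204 to 242; 218 mesenchyme-like cells), above the 167 CPM at E12.5 (147 to 188; 125 cells). In these cells Gata4 and Gata5 were only 1.66 and 3.32 CPM at E13.5. Cluster 54, led by the dermal fibroblast gene Dpt, held 116 CPM (108 to 125; 642 cells) at E13.5 with 0 Gata4 UMIs and 8 Gata5 UMIs. Cluster 53, with Cemip and Osr2, held 94.7 CPM, and cluster 21 held 73.9 at E12.5. Clusters led by the sclerotome factors Pax1 or Pax9 were at the low end, though not alone there. Over all stages, cluster 13 stood at 4.99 CPM (3.63 to 6.70), cluster 22 at 3.97 and cluster 30 at 1.04, the last from 2 UMIs in 177 cells. Without these factors among their leading genes, cluster 51 stood at 5.47 CPM (2.91 to 9.36) and cluster 49 at 5.67 (3.92 to 7.92). Both intervals overlap that of cluster 13.

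**Figure D4:**
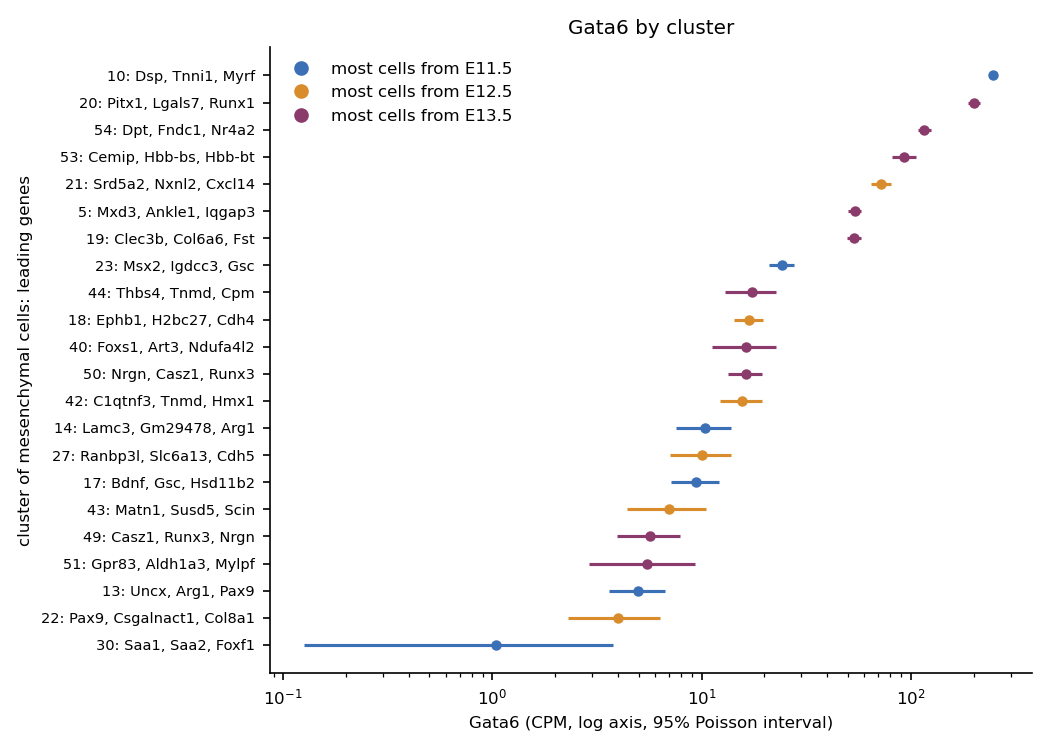
Gata6 (CPM, log axis, with 95% Poisson interval) in each cluster of mesenchymal cells, labelled with its number and leading genes and coloured by the stage that gave most of its cells. Levels run from 1.04 CPM in cluster 30 to 248 CPM in cluster 10, and the upper end holds clusters of every stage.

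Split by single genes, Gata6 of E11.5 mesenchyme-like cells went with lateral plate factors and against somite factors. Cells with Tbx5, the forelimb and heart field factor, stood at 148 CPM and the rest at 16.5. These Tbx5 cells were 23.3% of the class and held 76.1% of its Gata6 UMIs. Cells with Hand2 stood at 173 against 20.0 CPM. With Pax9, a sclerotome factor, the level was 5.73 against 57.5 CPM, and with Pax1 8.50 against 61.1. Gata6 was also lower with Ebf2, a factor of brown fat precursors and other mesenchyme, at 18.6 against 75.0 CPM.

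These contrasts were smaller at later stages. The log2 ratio with over without Tbx5 was 3.16, 1.74 and 0.47 in stage order, and for Hand2 3.12, 1.76 and 0.89. Tbx5 cells held 57.3% of Gata6 UMIs at E12.5 and 24.9% at E13.5, as 26.7% and 17.7% of cells. The ratio with Ebf2 was -2.02, -0.70 and -0.52. With Pax9 it was -3.33, -2.24 and -2.20. At E13.5 cells with Dpt stood at 109 CPM against 45.6 and held 34.6% of Gata6 UMIs as 15.7% of cells. The 306 cells with Pparg, the master factor of fat cells, stood at 98.9 CPM against 53.4. Cells with a UMI of a gene tend to be deeper, and the part of depth in these splits was not tested.

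**Figure D5:**
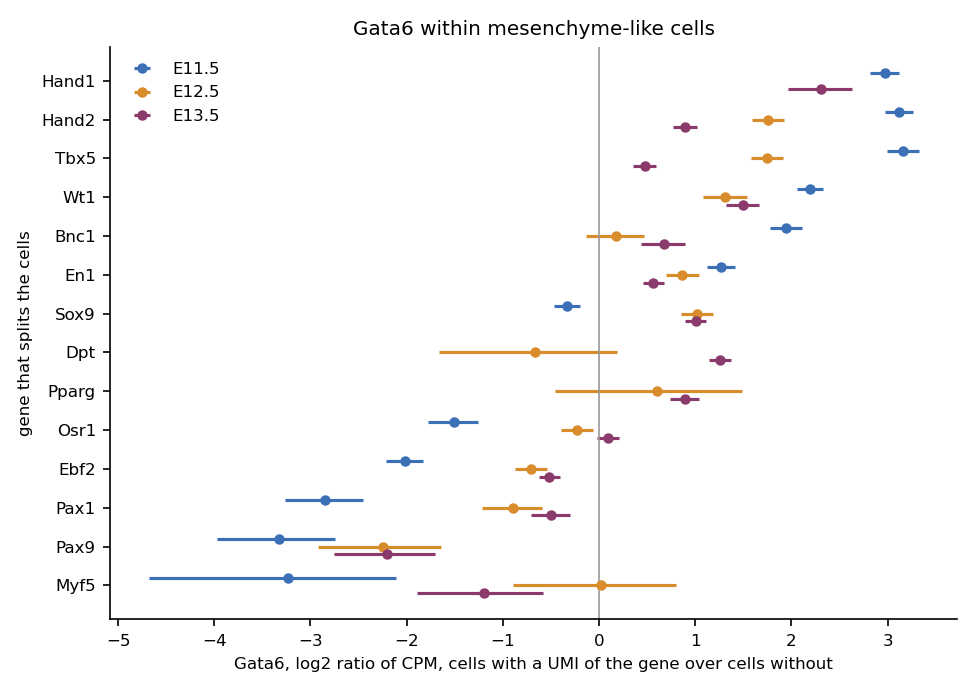
Log2 ratio of Gata6 CPM in mesenchyme-like cells with a UMI of the listed gene over cells without it, with its 95% interval, coloured by stage. Hand and T-box genes lie right of 0 and Pax1 and Pax9 left of 0 at each stage shown, with ratios nearer 0 at E13.5 for Tbx5 (0.47) than at E11.5 (3.16).

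Of 17 measured mesothelial and lateral plate genes in mesenchyme-like cells, 8 were lower and 2 higher by 2 fold or more at E12.5 than at E11.5, with a median of -0.91. Over all genes 3.18% were lower and 13.9% higher, with a median of 0.16. Upk3b had the lowest ratio (-4.77) and Osr1, a connective tissue factor, the highest (2.24). In the later step 6 of 16 were lower and 0 higher, beside 6.06% and 4.82% of all genes. Of 14 brown adipose lineage genes, 5 were higher and 1 lower in the earlier step, with Cebpa at 2.28, where 13.9% of all genes were higher. In the later step 4 were higher and 0 lower, with Pparg at 4.54, where 4.82% of all genes were higher.

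Gata4 and Gata5 in E11.5 mesenchyme-like cells sat within the Gata6 cells. Before thinning, of 62 cells with Gata4, 55 (88.7%) held Gata6, against 17.3% of cells without Gata4. Of 124 with Gata5, 112 (90.3%) held Gata6, against 15.2%. Gata4 and Gata5 shared 30 cells, 48.4% of those with Gata4 and 24.2% of those with Gata5. After thinning, 61.3% of cells with Gata4 and 64.7% of those with Gata5 held Gata6, against 9.24% and 9.12% of cells without, and 25.8% of cells with Gata4 held Gata5. Cells with Wt1 stood at 21.9 CPM of Gata4 against 0.661 in the rest, and at 26.1 against 2.37 of Gata5. Over all cell types most cells held at most 1 member: at E13.5, 5850 cells held none, 1556 held 1, 104 held 2 and 7 held 3.

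Chondrogenic-like cells held 3.54, 7.08 and 33.6 CPM of Gata6 in stage order. Gata6os and Gata5os are transcripts named as opposite strands of Gata6 and Gata5. Gata6os stood at 30.8 CPM in E11.5 mesothelium-like cells and 7.502, 2.71 and 3.03 in mesenchyme-like cells. Gata5os had at most 4 UMIs per library. Reads of such partners can be told apart only by strand, and no source used here states the strand setting of the counting.

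Genes whose level most resembled each member were ranked by Pearson r of log2(CPM + 1) over 30 class by stage profiles, among 15791 genes. Classes with few cells at a stage gave no profile. Mast-like and sympathetic neuron-like cells, given above as highest in Gata2 and Gata3, were therefore not covered. The 30 profiles held only 478 Gata2 and 1325 Gata3 UMIs, below the totals over all cells given above. The profiles share 3 libraries and differ in depth, so r is a description. Gata1 was most like Cldn13 and Rhag (r = 0.99 for either), then Asb17os, Gm2061 and Epb42. Over these profiles Gata2 was most like Rapgef5 and Dok4 (0.79 for either), then Esam, Klhl4 and Fam43a. Its leading r was the lowest of the 6 members, with mast-like cells not covered. Gata3 followed Itga3 (0.91), then Ppl, Efcab15, Grhl3 and Dsp. Gata4 followed Upk3b (0.96), then Tm4sf5, Myl7, Gata5 and Hand1. Gata5 followed Gata6os (0.95), then Gata4, Hdnr, Hand2os1 and Tm4sf5. Gata6 followed Ccdc80 and Hand2 (0.85 for either), then Hdnr, Adamts9 and Sh3d21. The choice rests on the pseudocount: with 10 CPM in place of 1, 13 of these 30 genes stayed among the 5 most like, and Ccdc80, Adamts9 and Sh3d21 did not. Rhag, Epb42 and Upk3b are class markers, as is Esam for the endothelium class. Hand1 and Hand2 are markers of the sympathetic class and Myl7 of the cardiac class. Within the family r was 0.92 for Gata4 with Gata5, 0.76 for Gata5 with Gata6 and 0.62 for Gata4 with Gata6. For Gata2 with Gata3 it was 0.26, again without mast-like and sympathetic neuron-like cells.

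Other genes carry GATA-type zinc fingers without belonging to the family. Of 10 such genes, including the chromatin proteins Gatad2a and Gatad2b and the skeletal factor Trps1, 0 passed 2 fold in either step in mesenchyme-like, spinal neuron-like or epidermis-like cells, with 9 of the 10 measured in the last. Between 3.18% and 13.9% of all genes passed in a given direction in these comparisons, so a count of 0 among 10 sets them little apart. In erythroid-like cells 4 of 9 measured were lower in the earlier step and 5 of 9 in the later, beside 53.7% and 42.1% of all genes.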

How the data were processed

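Single-cell RNA was counted in 3 mouse trunk libraries. The deposited files are unfiltered matrices of raw UMI counts; the authors ran Cell Ranger 8.0.1 against GRCm39, per the file headers and the submitters' processing notes. Library totals, which with the cells of a class set the counting intervals, were 94155624 to 113402193 UMIs.

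The family, lists and markers were chosen with earlier results of these data known. The named genes are the 6 members, the 5 most like each, and listed genes by count. A cell took the class with the highest share of its markers, with at least 3 present above expected free RNA; cells fitting incompatible classes were set aside as mixed. Scrublet called 1.99% to 2.82% of cells doublets, and these were left out only as an alternative. CPM carry exact Poisson intervals, shares exact Clopper-Pearson intervals and log2 ratios exact conditional binomial intervals. Ratios needed 50 cells at both stages; a listed gene was counted from 10 UMIs. Shares that are 0 allow 3 counts. Some settings were added after seeing the data. The ratio and likeness steps were tested on simulated data. Python 3.11.15, numpy 2.4.6, pandas 2.3.3, scipy 1.17.1, scanpy 1.11.5 and leidenalg 0.10.2 were used; 55 clusters were made without the Gata genes. Some genes of the lists are counted but not reported here by name.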

Additional observations from a re-analysis of the deposited data

How the results depend on the processing

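The 14 stage ratios and 41 levels of the classes named for each gene were recomputed, as far as cells allowed, with 8000 UMIs or 500 genes per cell as the minimum, no mitochondrial maximum, 6 markers per class, classes from Leiden clusters, doublet calls removed, free RNA subtracted or haemoglobin left out; the settings on mesothelial markers, chondrogenic cells and the mesothelium cluster were chosen after seeing the data. Shares were recomputed only without thinning. Among values of the classes where a gene leads, 152 stayed within their counting intervals, 19 moved and 3 reversed; for other values 275 stayed and 71 moved, and without thinning 31 of 41 shares moved. Haemoglobin left out gave 91.1 CPM for Gata1 in erythroid-like cells at E11.5 and -1.12 for its E12.5 ratio, and 500 genes gave -0.32 for its E13.5 ratio. Cluster classes gave 338 CPM for Gata2 in mast-like cells, 35.0 for Gata4 and 244 for Gata6 in mesothelium-like cells. The 6-marker minimum gave 100.3, 28.5 and 365 CPM for Gata4, Gata5 and Gata6 in mesothelium-like cells, and the mesothelium cluster alone 105 for Gata4 and 358 for Gata6. With 8000 UMIs the E12.5 ratios in spinal neuron-like cells were -0.66 for Gata2 and -0.82 for Gata3. In mesenchyme-like cells at E12.5 over E11.5, cluster classes gave -0.87 for Gata4 and the opposite sign, 0.31 and 1.98, for Gata5 and Gata6; no mesothelial markers gave -2.65, -1.33 and, with opposite sign, 0.33; and 6 markers gave -0.68 for Gata6. Classes from clusters kept only 495 of the 2282 mesenchyme-like cells of E11.5. At E13.5 over E12.5 Gata6 was 0.85 without mesothelial markers and 0.86 with chondrogenic cells. The cause of these shifts was not tested. Levels resting on fewer than 3 UMIs are at the depth limit. No paired analysis was possible because each stage has 1 library and no replicate numbers.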
